A study of Mus musculus with 17 samples.

Results

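Exosomes are small vesicles shed by cells, and 1487 small RNAs (smRNAs) were counted in those isolated from mouse feces. Of these, 3 microRNAs (miRNAs) are described here, mmu-miR-138-5p, mmu-miR-672-3p and mmu-miR-682. They were chosen by their measured levels, each being lower at the end-point of the study than at its start-point with no overlap between the libraries of the 2 time points. Levels are given as CPM, the counts of an smRNA scaled to a library total of 1000000 counts. Since the time point values chose these 3 miRNAs, those values are given as a description and carry no test. All 3 passed the filter on low counts and were among the 1270 smRNAs that entered the tests.

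Every one of the 17 libraries was made from IL-10 KO mice, which lack interleukin 10, are on a C57BL/6J background and develop spontaneous bowel inflammation. The mice arrived at 4 weeks of age, were housed individually and received no treatment named in the labels, and the age at either time point is not given in the sources used here. The 10 start-point libraries came from 10 mice (7 male and 3 female), with total counts of 87527 to 178075. The 7 end-point libraries (5 male and 2 female) came from 6 of those mice, since the first and second both carry the label of mouse 1, and their totals were 32320 to 161862, with 3 under 75000. Wild-type mice were not analysed here, so no change with time can be set against that of mice with interleukin 10. In a bulk vesicle preparation, fewer vesicles from a cell type and fewer copies per vesicle cannot be told apart either.

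A mature miRNA guides Argonaute proteins to messenger RNAs, mainly by pairing of its seed, the stretch near its 5′ end, and the bound messages are repressed. Mature miRNAs are cut from hairpin precursors, each of which can give a 5p and a 3p arm. miR-138-5p is enriched in brain, where it limits the size of dendritic spines by repressing the depalmitoylating enzyme Lypla1. It has also been studied as a regulator of cell growth in tumours. Much less is known of miR-672-3p and miR-682.

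The sequences are shown because their seeds and their precursors set what a count of each miRNA can stand for. They are the RefSeq sequences on GRCm38.p6, written 5′ to 3′ with bases 2 to 8, the seed, in capitals.
miR-138-5p: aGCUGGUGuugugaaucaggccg
miR-672-3p: aCACACAGucacuaucuucga
miR-682: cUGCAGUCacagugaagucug
The 3 seeds differ from one another. None of the other table miRNAs with a RefSeq sequence (1254 of 1439 mature miRNAs had one) shared any of them, which was the usual case, since 76.7% of those 1254 had a seed that no other carried. No other annotated miRNA gene lay within 50 kb of any of their genes.

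miR-138-5p is made from precursors at 2 loci, Mir138-1 on chromosome 9 and Mir138-2 on chromosome 8, so its count cannot be assigned to either gene. By name in RefSeq, 36 of the 1254 miRNAs (2.87%) had more than 1 locus. Both hairpins are printed with miR-138-5p in capitals.
Mir138-1: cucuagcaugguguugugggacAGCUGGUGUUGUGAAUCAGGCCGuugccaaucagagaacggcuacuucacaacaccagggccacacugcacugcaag
Mir138-2: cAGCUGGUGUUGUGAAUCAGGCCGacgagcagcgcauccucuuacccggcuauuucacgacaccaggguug
The mature sequence lies at chr9:122682898-122682920 in Mir138-1 and at chr8:94324312-94324334 in Mir138-2, both on the plus strand. In GENCODE vM21, Mir138-1 overlaps an exon of the transcribed pseudogene Gm47135 and Mir138-2 an exon of the long noncoding RNA C78859. The 3p arms differ between the loci and tell them apart. They are printed with their own seeds in capitals, and the longest run they share is 9 bases.
miR-138-1-3p: cGGCUACUucacaacaccaggg
miR-138-2-3p: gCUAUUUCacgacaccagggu

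miR-672-3p comes from 1 RefSeq locus at chrX:104116192-104116212 on the minus strand. Mir672 lies within Nexmif, a gene needed for neuronal development, in an intron and on the same strand. The other arm of that hairpin, miR-672-5p, was not analysed here.

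miR-682 is annotated at chr13:75645119-75645139 on the plus strand, inside the processed pseudogene Gm4149. Its hairpin is printed with the mature miRNA in capitals.
Mir682: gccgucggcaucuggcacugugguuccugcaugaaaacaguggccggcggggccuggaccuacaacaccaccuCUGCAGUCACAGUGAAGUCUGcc
Of the 96 hairpin bases, 95 (98.96%) were identical to the messenger RNA of Rpl37a, a protein of the large ribosomal subunit. All 21 bases of the mature miRNA matched that message at chr1:72713510-72713530, in the coding part of exon 4 of 4. The same 21 bases occur in 5 processed pseudogenes, of which Gm4149 is 1, and in 1 unprocessed pseudogene. GENCODE vM21 annotates 6 miRNA genes that hold them, Mir682 and 5 others (Gm25595, Gm22757, Gm22758, Gm22759 and Gm26300), so the count of miR-682 cannot be assigned to 1 gene either. A fragment of Rpl37a mRNA that ends at these bases therefore cannot be told apart from miR-682 by sequence. Exact matches to protein-coding transcripts were found for 98 of the 1254 miRNAs (7.82%), and miR-682 was the only one of the 3 with such a match. Of the 89 that were tested, 11 (12.4%) were called lower at the end-point and 10 (11.2%) higher, with a median log2 fold change of 0.09, against 16.3% lower and 17.4% higher over all tested smRNAs. A call here means an adjusted p below 0.05 in the quasi-likelihood test of edgeR.

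mmu-miR-138-5p went from among the abundant smRNAs to the middle of the list. At the start-point its level was between 1081 CPM in library 10 and 19981 CPM in library 8, with a median of 3131 CPM and a mean of 4976 ± 5505 CPM (SD, n = 10). At the end-point it was between 55.6 and 585 CPM, with a median of 109.7 CPM and a mean of 185 ± 184 CPM (SD, n = 7). Every end-point library was below every start-point library, and the lowest start-point library was 1.85 times the highest end-point library. With the TMM factors of the fits below, that ratio was 1.29. In CPM by library total, separation without overlap on the lower side was found for 65 of the 1270 tested smRNAs (5.12%). In rank of abundance, miR-138-5p stood between 4 and 224 in the start-point libraries (median 36) and between 313 and 916 in the end-point libraries (median 694). The spread at the start-point was wide, with a coefficient of variation of 110.6%. Library 8 lay far above the others, and miR-138-5p alone made up 1.998% of all its counts.

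mmu-miR-672-3p had a lower and more even level at the start-point. It was between 663 and 2703 CPM there, with a median of 1275 CPM and a mean of 1487 ± 627 CPM (SD, n = 10), a coefficient of variation of 42.1%. At the end-point it was between 47.0 and 329 CPM, with a median of 109.7 CPM and a mean of 148 ± 101 CPM (SD, n = 7). The groups did not overlap, and the lowest start-point library was 2.02 times the highest end-point library (2.88 times with TMM factors). Its median abundance rank was 113.5 at the start-point and 669 at the end-point.

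mmu-miR-682 was the least abundant of the 3 at both time points. At the start-point it was between 137 and 716 CPM, with a median of 365 CPM and a mean of 354 ± 181 CPM (SD, n = 10), from 12 to 111 counts per library. At the end-point it was between 0 and 54.8 CPM, with a median of 13.2 CPM and a mean of 17.9 ± 20.1 CPM (SD, n = 7). The end-point values rest on 12 counts in all 7 libraries together, and 6 of the 7 held 3 counts or fewer. The lowest start-point library was 2.50 times the highest end-point library (2.32 times with TMM factors).

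**Figure D1:**
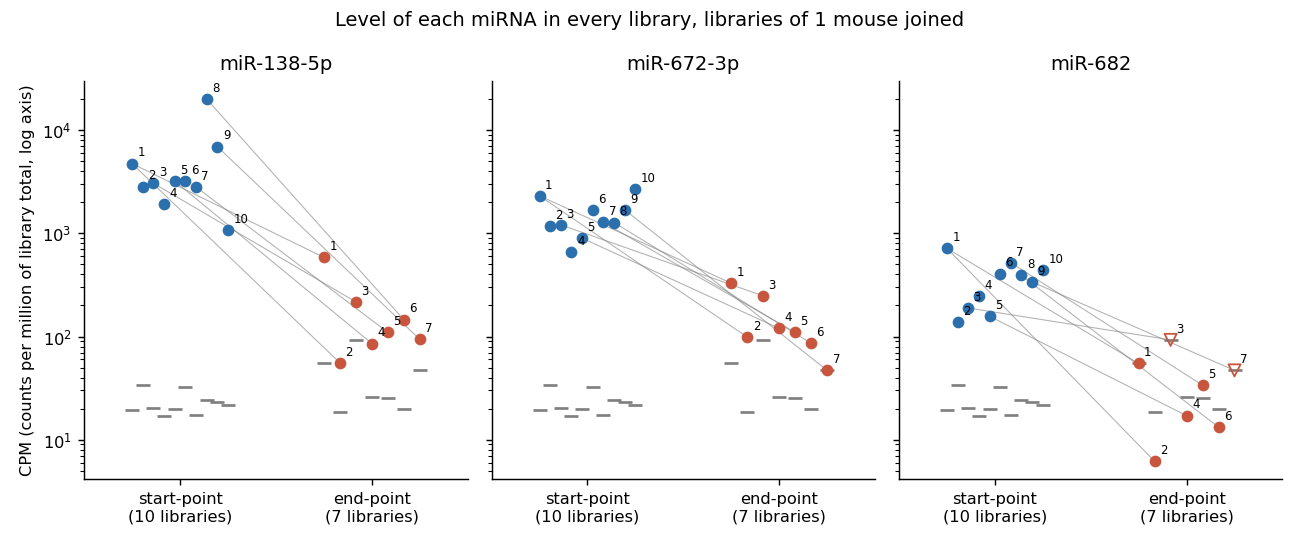
Level of miR-138-5p, miR-672-3p and miR-682 in each library, in CPM on a log axis, for 10 start-point (blue) and 7 end-point (red) libraries. Numbers are library numbers, grey lines join libraries of 1 mouse, grey dashes mark the level of 3 counts, and open triangles are libraries with 0 counts drawn at that level. Every end-point point lies below every start-point value of the same miRNA, and miR-138-5p ranges from 1081 to 19981 CPM at the start-point.

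Within mice, miR-138-5p was lower at the end-point in 6 of 6 animals that had both time points. The choice of groups without overlap fixed this sign in advance, so only the sizes are described. In mouse 1 it was 4735 CPM at the start-point, against 585 CPM in the first end-point library and 55.6 CPM in the second. These correspond to folds of 8.10 (95% exact interval of the ratio of counts 5.69 to 11.9) and 85.2 (44.6 to 187), so the intervals of the pair of end-point libraries labelled as mouse 1 did not overlap. With library totals scaled by the TMM factors of the fits below, this pair held 438 and 133 CPM. In the other males it was 3059 against 217 CPM in mouse 3, 3204 against 85.6 CPM in mouse 5 and 2816 against 109.7 CPM in mouse 7. In the females it was 19981 against 146 CPM in mouse 9 and 6922 against 94.0 CPM in mouse 11. The fold was lowest in mouse 3 apart from the first library of mouse 1, at 14.1 (6.80 to 35.3), and highest in mouse 9, at 137.2 (90.4 to 219). These folds and intervals use library totals, and their sizes depended on the scaling. With TMM factors mouse 9 had 13531 against 195 CPM, a smaller fold that was still the highest. Mouse 3 had 2732 against 147 CPM, a larger fold than by library totals. On the log2 CPM scale with a prior count of 2, averaging the pair of mouse 1, the end-point minus start-point difference was -5.11 ± 1.17 (SD, n = 6 mice), between -6.95 and -3.72. The 4 mice with a start-point library only had 2833, 1915, 3210.3 and 1081 CPM (mice 2, 4, 6 and 14).

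The corresponding difference of miR-672-3p was smaller and also below 0 in 6 of 6 mice, a sign again fixed by the choice. In mouse 1 its level was 2309.5 CPM, against 329 and 98.8 CPM at the end-point, folds of 7.02 (4.38 to 12.0) and 23.4 (14.2 to 41.3). With TMM factors this pair of end-point libraries held 246 and 236 CPM, so their difference in miR-672-3p depended on the scaling. It was 1209 against 248 CPM in mouse 3, 898 against 119.8 CPM in mouse 5 and 1277 against 109.7 CPM in mouse 7. In the females it was 1273 against 86.1 CPM in mouse 9 and 1690.2 against 47.0 CPM in mouse 11. By library totals the fold was between 4.88 (2.43 to 11.5) in mouse 3 and 36.0 (12.2 to 175.8) in mouse 11, where the end-point library held 3 counts. With TMM factors the lowest fold was in mouse 5, at 864 against 216 CPM, where mouse 3 had 1080 against 168 CPM. Mouse 11 was still the highest, at 1012 against 43.6 CPM. The mean difference in log2 CPM was -3.38 ± 0.87 (SD, n = 6 mice). In the start-point-only mice 2, 4, 6 and 14 miR-672-3p was 1165, 663, 1686 and 2703 CPM. By library totals, mouse 14 thus had the highest miR-672-3p and the lowest miR-138-5p of the 10 start-point libraries. With TMM factors its miR-138-5p was still the lowest, at 565 CPM. Its miR-672-3p was then 1411 CPM, below the 2892 CPM of mouse 1.

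For miR-682 the counts set how far the paired differences can be read. The end-point libraries of mice 3 and 11 held 0 counts. A count of 0 allows up to 3 counts, that is 92.8 CPM in the library of mouse 3 and 47.0 CPM in that of mouse 11. Against start-point levels of 189 and 338 CPM, these limits are 2.04-fold lower in mouse 3 and 7.20-fold lower in mouse 11. Those folds leave out the counting error of the start-point libraries. With it included, the lower limits of the exact intervals of the fold were 1.55 in mouse 3 and 5.61 in mouse 11. Where end-point counts were present, the folds were 13.1 (4.36 to 64.3) and 115.9 (20.4 to 4619) for the libraries of mouse 1, which rest on 3 counts and 1 count. They were 9.19 (2.28 to 80.2) in mouse 5, 15.4 (5.80 to 57.6) in mouse 7 and 29.6 (7.77 to 251.5) in mouse 9. Every one of these intervals lies above 1, and they are too wide to rank the mice. The start-point-only mice 2, 4, 6 and 14 held 137, 247, 408 and 439.7 CPM.

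Depth bears on these counts differently for each miRNA. In the shallowest library, end-point library 3 with 32320 counts, the median start-point share would give 101 counts of miR-138-5p, where 7 were found. It would give 41.2 counts of miR-672-3p, where 8 were found, and 11.8 counts of miR-682, where 0 were found. At the lowest share seen at the start-point, 4.43 counts of miR-682 would be expected there, so in that library the lowest start-point level would stand only just above 3 counts. In the 4 end-point libraries of 116880 counts or more, the levels were 55.6 to 146 CPM for miR-138-5p, 86.1 to 119.8 CPM for miR-672-3p and 6.18 to 33.8 CPM for miR-682. In CPM by library total, the highest end-point levels of all 3 miRNAs were in end-point library 1, one of the 3 shallow libraries. For miR-682 that level rests on 3 counts. With TMM factors miR-682 was highest in end-point library 5, at 46.5 CPM against 41.1 CPM in library 1. Summed over libraries, the start-point shares were above the end-point shares by folds of 33.8 (27.7 to 41.6), 12.1 (9.71 to 15.2) and 21.1 (12.0 to 41.1) for miR-138-5p, miR-672-3p and miR-682, with intervals for counting error only.

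In the fit over all smRNAs, which scales libraries by TMM factors, the end-point to start-point log2 fold change was -4.44 ± 0.61 (SE) for miR-138-5p. It was -3.85 ± 0.67 for miR-682 and -2.93 ± 0.45 for miR-672-3p. As folds these are 21.7, 14.4 and 7.62 times lower. The median over all 1270 tested smRNAs was -0.18, and relative to it the changes were -4.25, -3.67 and -2.75. miR-138-5p had the lowest log2 fold change of all tested smRNAs, miR-682 the fifth lowest and miR-672-3p the 24th. Of the 24 at or below miR-672-3p, 16 had no overlap between time points. The next 2 smRNAs by p among those called lower, outside the 3, were miR-7665-5p, at -2.75 ± 0.49, and miR-7084-3p, at -4.04 ± 0.73, and neither overlapped between time points. The values of miR-7665-5p were at most 866 CPM at the end-point and at least 1889 CPM at the start-point, and those of miR-7084-3p at most 92.8 and at least 275 CPM. Without start-point libraries 1, 4, 6 and 7, which stand apart as described with the miR-138 arms, miR-682 had a log2 fold change of -3.02, and with those 4 as the only start-point libraries it was -4.42.

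Calls were common in this comparison, with 428 of 1270 smRNAs (33.7%) past the threshold, 221 higher and 207 lower at the end-point. The split depended on the scaling, as 51.6% of calls were higher with TMM factors, 31.9% with library totals only and 57.5% with DESeq2 size factors, while the median log2 fold change was -0.18, -0.65 and -0.06. With mouse identity as a block, 104 of the 1270 smRNAs (8.19%) were called. Over the 29 alternatives run, the log2 fold change ranged from -4.81 to -3.94 for miR-138-5p, from -3.32 to -2.59 for miR-672-3p and from -4.42 to -3.02 for miR-682. Their sign says nothing of stability, since the 3 were chosen for groups that do not overlap.

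**Figure D2:**
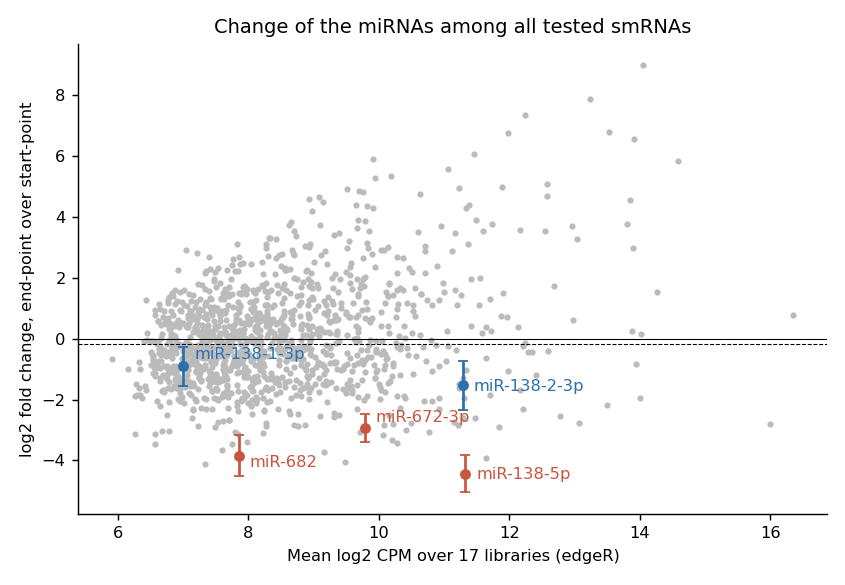
Log2 fold change, end-point over start-point, against mean log2 CPM over 17 libraries for the 1270 tested smRNAs (grey), miR-138-5p, miR-672-3p and miR-682 (red) and the 3p arms of miR-138 (blue), with bars of 1 SE. The dashed line is the median of all tested smRNAs at -0.18. miR-138-5p at -4.44 is the lowest point of the plot, and both 3p arms lie nearer to the median.

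The 3p arms of the miR-138 hairpins were not used to choose the 3 miRNAs, and neither was called. miR-138-1-3p was between 32.2 and 513 CPM at the start-point (median 143) and between 0 and 183 CPM at the end-point (median 33.8). Its log2 fold change was -0.91 ± 0.64, with an adjusted p of 0.280 in edgeR's quasi-likelihood test. miR-138-2-3p, the arm made from Mir138-2 alone, was between 194 and 10017 CPM at the start-point (median 769.8) and between 318 and 1485 CPM at the end-point (median 907). It differed by -1.54 ± 0.80 in log2 (edgeR adjusted p = 0.139). The 0 calls among these 2 arms stand beside 33.7% of all tested smRNAs. In 35 of the 70 pairs of 1 end-point and 1 start-point library, the end-point value of miR-138-2-3p was at or above the start-point value, against 16 of 70 for miR-138-1-3p and 0 of 70 for miR-138-5p. Within mice, miR-138-2-3p was lower at the end-point in 3 and higher in 3, and miR-138-1-3p lower in 5 and higher in 1. Whether the change of the 5p arm differed from that of the 3p arms was not tested.

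The level of miR-138-2-3p at the start-point fell into separate ranges. It was 2246 to 10017 CPM in start-point libraries 1, 4, 6 and 7 and 194 to 771 CPM in the other 6. miR-138-1-3p was 32.2 to 44.9 CPM in those 4 and 96.1 to 513 CPM in the other 6. The same 4 libraries stood apart over all smRNAs, with a mean Spearman correlation of 0.77 among themselves and 0.73 among the other 6, but 0.49 between the sets. All 4 were from male mice, and what sets them apart is not given in the labels. In CPM by library total, the ranges of the 3 miRNAs in the 2 sets overlapped, with medians of 3013 against 3131 CPM for miR-138-5p, 1481 against 1241 CPM for miR-672-3p and 463 against 264 CPM for miR-682. With TMM factors miR-682 was nearly separate, at 265 to 897 CPM in those 4 and 108 to 266 CPM in the other 6. Leaving those 4 out, miR-138-2-3p was higher at the end-point, by 1.69 in log2. With those 4 as the only start-point libraries it was lower, at -2.61. The direction of miR-138-2-3p thus depended on which start-point libraries were used. Both fits were added after seeing the data, and the split separates the levels of miR-138-2-3p itself. In those 4 libraries it lay above every end-point library, which reached at most 1485 CPM. The 2 values therefore describe the split and carry no test.

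**Figure D3:**
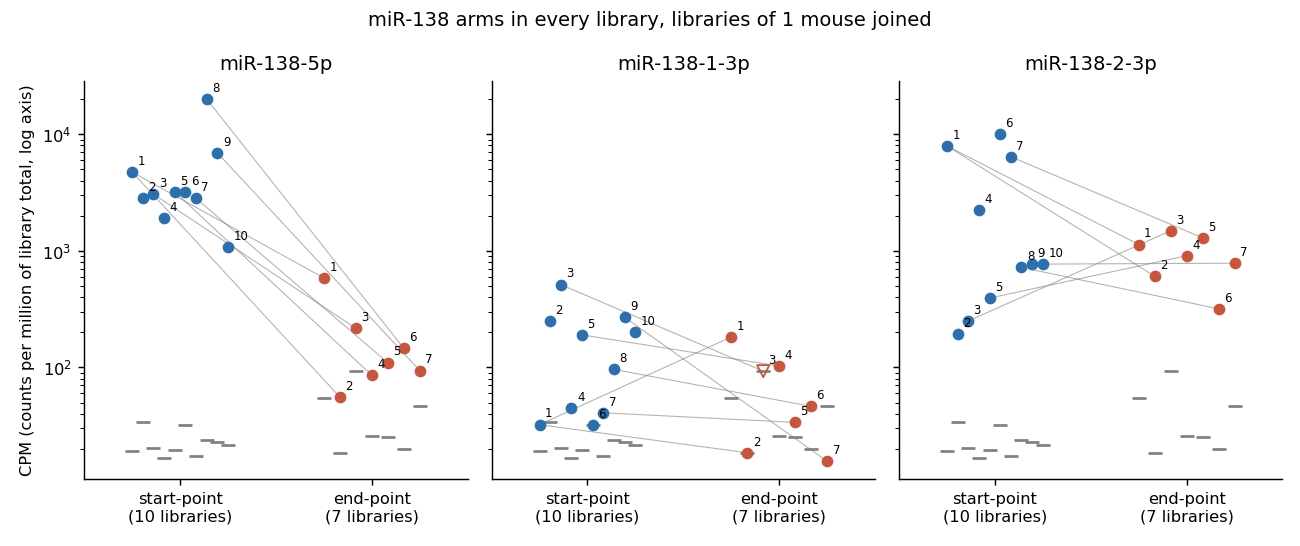
Levels of miR-138-5p, miR-138-1-3p and miR-138-2-3p in each library, in CPM on a log axis, for 10 start-point (blue) and 7 end-point (red) libraries. Numbers are library numbers, grey lines join libraries of 1 mouse, grey dashes mark the level of 3 counts, and open triangles are libraries with 0 counts drawn at that level. miR-138-2-3p shows start-point libraries 1, 4, 6 and 7 at 2246 to 10017 CPM, above the other 6 at 194 to 771 CPM, with the end-point libraries at 318 to 1485 CPM between and around them.

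Among the counts of the 3 miR-138 arms, the 5p arm made up a median of 66.3% at the start-point (24.2% to 96.1%, n = 10) and 10.5% at the end-point (7.65% to 30.8%, n = 7). In start-point libraries 1, 4, 6 and 7 the share was 37.3%, 45.5%, 24.2% and 30.4%, and in the other 6 it was 52.6% to 96.1%. End-point library 1, at 30.8% (95% Wilson interval 22.7% to 40.2%), and end-point library 6, at 28.6% (19.7% to 39.5%), reached the level of start-point libraries 6 and 7. The remaining 5 end-point libraries were between 7.65% and 12.7%. Of the 3p counts alone, the arm of Mir138-2 held 32.7% to 99.7% at the start-point and 86.1% to 100% at the end-point. The share contains the 5p counts that chose miR-138-5p and is a description.

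**Figure D4:**
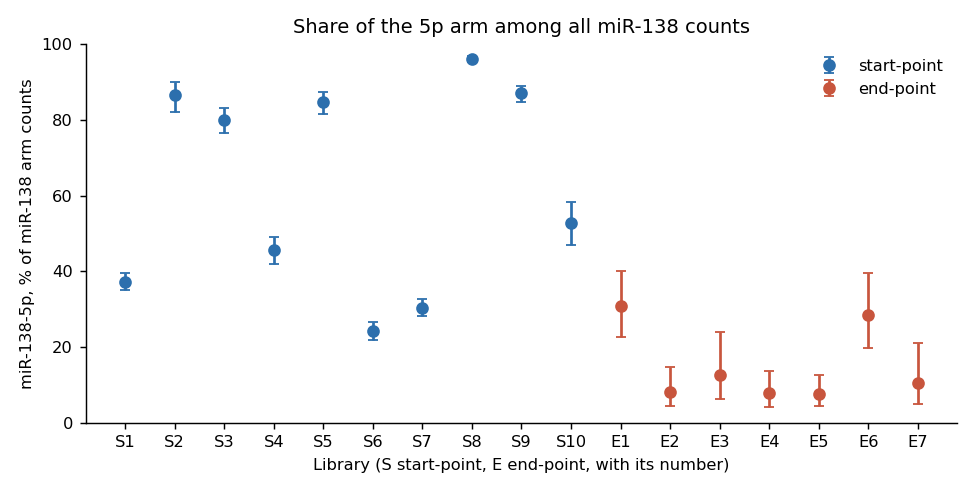
Percent of all miR-138 arm counts that were miR-138-5p in each of the 10 start-point (S, blue) and 7 end-point (E, red) libraries, with 95% Wilson intervals. Start-point libraries lie at 24.2% to 96.1% and end-point libraries at 7.65% to 30.8%, with the ranges overlapping through libraries S6, S7, E1 and E6.

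The start-point levels were part of what chose the 3 miRNAs, so their correlations within the start-point describe these libraries. Of the 3 pairs, miR-672-3p and miR-682 had the highest correlation. Correlations used log2 CPM, permutation p-values and Benjamini-Hochberg adjustment over the 9 relations computed. miR-672-3p and miR-682 had Pearson r = 0.66 (permutation p = 0.0372, adjusted 0.335) and Spearman rho = 0.77 (permutation p = 0.0120, adjusted 0.108) over 10 libraries. Without libraries 4 and 10, the 2 farthest from the median of miR-672-3p, r was 0.78, and within the 6 libraries other than 1, 4, 6 and 7 it was 0.77 (exact permutation p = 0.0389, adjusted 0.233). With TMM factors over 10 libraries, r was 0.81 and rho 0.54 (permutation p = 0.00926 and 0.115, adjusted 0.0833 and 0.525). With counts drawn at random down to 32320 per library, they were 0.54 and 0.47 (permutation p = 0.106 and 0.170, adjusted 0.834 and 0.723). The relation was positive in each of these sets and scalings, varied in size, and did not pass the adjusted threshold in any.

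The correlations of miR-138-5p depended on the scaling and on single libraries. In CPM by library total over all 10 libraries, its r with miR-672-3p was -0.04 (permutation p = 0.923) with rho = 0.18 (permutation p = 0.634), and with miR-682 r was 0.16 (permutation p = 0.684) with rho = 0.07 (permutation p = 0.869). The adjusted values were 0.923 and 0.879 for r and 0.919 for both rho. With TMM factors, r and rho with miR-682 were 0.31 and 0.52 (permutation p = 0.378 and 0.132, adjusted 0.850 and 0.525). Without libraries 8 and 10, the extremes of miR-138-5p, its r with miR-672-3p was 0.76 (exact permutation p = 0.0255, adjusted 0.115), while within the 6 libraries other than 1, 4, 6 and 7 it was -0.38 (exact permutation p = 0.447). The value over 10 libraries therefore rests on libraries 8 and 10. With miR-682, r was 0.37 without those 2 libraries and 0.22 within the 6.

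**Figure D5:**
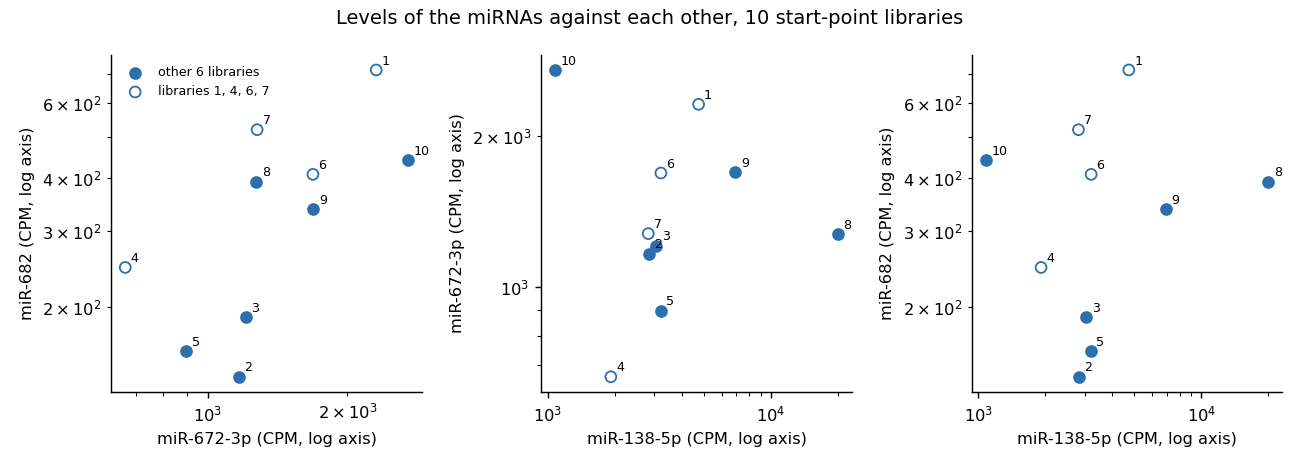
Levels of the 3 miRNAs against each other in the 10 start-point libraries, in CPM on log axes, with library numbers and with libraries 1, 4, 6 and 7 as open points. miR-682 is higher where miR-672-3p is higher (r = 0.66), whereas miR-138-5p against miR-672-3p (r = -0.04) is set by libraries 8 and 10 at opposite ends of its range.

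No relation between library total and any of the 3 levels passed the threshold at the start-point, with r = -0.16 for miR-138-5p, -0.22 for miR-672-3p and 0.24 for miR-682 (permutation p = 0.614, 0.542 and 0.485, adjusted 0.879 for each). The corresponding rho values were -0.37, -0.18 and 0.28 (permutation p = 0.298, 0.635 and 0.427, adjusted 0.919). No shared order of the mice in miR-138-5p was detectable between time points, with r = 0.04 (exact permutation p = 0.914, adjusted 0.923) and rho = -0.09 (exact permutation p = 0.919, adjusted 0.919) over 6 mice. With TMM factors they were 0.46 and 0.54 (exact permutation p = 0.325 and 0.297, adjusted 0.850 and 0.564). Mouse 9, with 19981 CPM at the start-point, had 146 CPM at the end-point, within the range of the other mice. The same relation was not computed for miR-672-3p and miR-682, which had a library at or under 3 counts. Within the 6 start-point libraries other than 1, 4, 6 and 7, r of miR-138-5p was -0.49 with miR-138-1-3p and 0.28 with miR-138-2-3p (exact permutation p = 0.283 and 0.614, both adjusted 0.879), with rho = -0.31 and 0.09 (exact permutation p = 0.564 and 0.919).

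Female and male libraries were compared with time point as a covariate, a comparison the choice of the 3 did not use. The fit had no term for the mouse, so the 17 libraries from 10 mice were treated as separate animals. At the start-point, miR-138-5p was 1081, 6922 and 19981 CPM in the 3 females and 1915 to 4735 CPM in the 7 males, so the females held both the lowest and the highest values. At the end-point it was 94.0 and 146 CPM in the 2 females, inside the male range of 55.6 to 585 CPM. Females stood above males by 0.39 ± 0.55 in log2 (SE), and the edgeR adjusted p was 0.845.

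miR-672-3p was 1273 to 2703 CPM in start-point females and 663 to 2309.5 CPM in males, and 47.0 to 86.1 CPM in the 2 end-point females, below all 5 end-point males at 98.8 to 329 CPM. Its female to male log2 fold change over both time points was -0.72 ± 0.43, with an edgeR adjusted p of 0.601. For miR-682 it was -0.92 ± 0.63, with an edgeR adjusted p of 0.651. These fits use TMM factors, whereas the CPM ranges use library totals. With library totals only, the female to male log2 fold changes were 0.86 for miR-138-5p, -0.09 for miR-672-3p and -0.21 for miR-682. The size of the sex difference thus depended on the scaling, and none of the 3 was called with either. Over all 1401 smRNAs tested, 0 were called for sex (0.0%), with 136 at an unadjusted p under 0.05, and DESeq2 called 35.

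The interaction of sex and time point was -1.45 ± 1.14 for miR-138-5p, -1.02 ± 0.85 for miR-672-3p and -0.70 ± 1.31 for miR-682 (female minus male difference in log2 fold change). The edgeR adjusted p-values were 0.844, 0.844 and 0.919. Of 1462 smRNAs tested, 0 had a call (0.0%), with 93 at an unadjusted p under 0.05, and DESeq2 called 3. These estimates rest on 2 female end-point libraries, and this fit had no term for the mouse either.

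The smRNAs whose levels were most like each miRNA were found by Pearson r of log2 CPM, as a description. Over the 10 start-point libraries miR-138-5p was most like miR-6966-5p (r = 0.84), miR-7084-3p (0.83) and miR-423-3p (0.81), where the median over all tested smRNAs was 0.01. Of these, miR-7084-3p had a log2 fold change of -4.04, miR-423-3p of -2.32 with an edgeR adjusted p of 0.0578, and miR-6966-5p of 0.75. Likeness at the start-point thus went with different changes over time. Over all 17 libraries miR-7066-3p was nearest (r = 0.91), a measure that contains the difference between time points.

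miR-672-3p was most like miR-5136 (r = 0.93), miR-7685-5p (0.93) and miR-367-3p (0.90) at the start-point, and miR-682 most like miR-717 (0.93), miR-486a-5p (0.92) and miR-7055-3p (0.91). The log2 fold changes of these 6 smRNAs were -0.76, 0.35, -1.33, -0.25, -1.27 and -0.41, and of them miR-367-3p was called lower (edgeR adjusted p = 0.0241). Over all 17 libraries miR-672-3p and miR-682 were each other's nearest smRNA (r = 0.94). That value contains the difference between time points for which both were chosen, and within the start-point their r was 0.66.

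Because miR-138-5p is a brain-enriched miRNA, 12 neuron-associated miRNAs were listed, of which 9 were in the table and all 9 were tested. Of the 9, 1 was called in each direction. miR-137-3p, which acts in neuronal differentiation, rose by 1.53 ± 0.46 in log2 (edgeR adjusted p = 0.0131), and miR-212-3p, induced by neuronal activity together with miR-132, fell by 1.21 ± 0.46 (edgeR adjusted p = 0.0438). The other 7 were not called. miR-132-3p was at -1.15 (edgeR adjusted p = 0.0509), miR-124-3p, which is abundant in neurons, at 0.64 and miR-9-5p at 1.17. The count of 2 in 9 stands beside 33.7% of all tested smRNAs, and the list's median log2 fold change was 0.41 beside -0.18. Its summed level was 1452 to 3939 CPM at the start-point and 1050.3 to 3868 CPM at the end-point, with miR-9-3p and miR-219a-5p at 0 in 3 end-point libraries each. With mouse identity as a block, 0 of the 9 were called, beside 8.19% of all tested smRNAs. Leaving out 1 library gave 1 call without any of start-point libraries 1, 2, 4, 6, 7, 8 and 9 or end-point libraries 3 to 7, and 3 calls without start-point libraries 3 or 5 or end-point libraries 1 or 2.

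Markers of the other cells that can shed vesicles into feces were measured beside these values. Of 10 intestinal-epithelium-associated miRNAs 9 were tested and 7 called, 3 higher and 4 lower, beside 33.7% of all tested smRNAs, with a summed level of 3778 to 19932 CPM at the start-point and 3032 to 38181 CPM at the end-point. Of 8 leukocyte-associated miRNAs 5 were tested and 2 called, beside the same 33.7%, with miR-223-3p higher by 2.38 in log2 and miR-342-3p lower. Their summed levels were 1101 to 4174 CPM at the start-point and 702 to 3414 CPM at the end-point. With the block, 2 of the 9 and 0 of the 5 were called, beside 8.19% of all tested smRNAs. Their part in the levels of miR-138-5p, miR-672-3p and miR-682 was not tested.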

How the data were processed

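The authors deposited 1 table of raw counts per smRNA for the 17 libraries (1439 mature miRNAs and 48 piRNA loci), and every listed smRNA reached at least 10 counts in some library. Per the labels' protocols, vesicles were precipitated from homogenised and filtered pellets with ExoQuick TC and libraries were made with the QIAseq miRNA kit, which carries molecular identifiers. Whether these were used in counting, how reads matching several loci were assigned, and the aligner, counter and annotation are not given in the sources used here. The submitters' processing notes name bcl2fastq and GRCm38.

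Counts were fitted in edgeR 4.0.16 (R 4.3.3, quasi-likelihood test, TMM factors, filterByExpr, Benjamini-Hochberg adjustment over all tested smRNAs). The test scripts were tested on simulated data. CPM values use library totals without TMM factors. Log2 CPM for correlations used a prior count of 2. Permutation tests were two-sided, with 100000 resamples for 10 libraries and all 720 pairings for 6. DESeq2 1.42.0, other scalings and filters, a block and left-out libraries were alternatives. Wilson intervals, exact intervals of count ratios and the floor of 3 counts cover counting error only and take each count as a separate molecule. PCR copies may be included, and in that case they understate the counting error.

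Groups follow the time point in the labels, and pairing follows mouse identity, not title numbers. Over 7 same-mouse pairs from 6 mice, deviations from the group means correlated with a mean r of 0.09 (-0.07 to 0.27). Each mouse gave at most 1 library per time point, except mouse 1, which gave 2 at the end-point. Apart from the fits with the block, p-values over the 17 libraries treat all libraries of 1 mouse as separate. The smRNAs named were the 3 miRNAs, the other arms of their hairpins, the 3 most like each at the start-point and the 1 over all libraries, the next 2 called lower by p, and the called neuron-associated miRNAs. Further list members were named after their values were seen. The 3 miRNAs and all lists were chosen with earlier results of these data known. Leaving out start-point libraries 1, 4, 6 and 7, or keeping only those at the start-point, was added after seeing the data, from average-linkage clustering on Spearman correlations. Sequences were matched to RefSeq by name, and exact matches were searched in the 58797 protein-coding transcripts of GENCODE vM21.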

Additional observations from a re-analysis of the deposited data

Results flagged for a closer look

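In 3 of 10 groups of libraries, 1 CPM value stood far from the others relative to the range of its group (Dixon's ratio above its 95% critical value). For normally distributed values chance alone gives about 1 in 20. That rate need not hold for CPM, which are skewed, and log2 CPM were not screened. For miR-138-5p at the start-point this was library 8, from female mouse 9, at 19981 CPM, with the next library at 6922 CPM. For miR-138-5p at the end-point it was library 1, from mouse 1, at 585 CPM, with the next at 217 CPM. That library held 54747 counts, 32 of them miR-138-5p. For miR-138-1-3p it was start-point library 3, at 513 CPM from 76 counts, with the next at 269 CPM. Without start-point library 8 the log2 fold change of miR-138-5p was -3.94, and without end-point library 1 it was -4.81.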

How the results depend on the processing

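With the replicate block of mouse identity, which pairs the libraries of each mouse, miR-138-5p was at -4.81, miR-672-3p at -3.17 and miR-682 at -4.28, calls over all smRNAs went from 428 to 104 (85 with the second library of mouse 1 out) and neuron-associated calls to 0 in both fits. Male libraries alone gave 211 and 0 calls. Neuron-associated calls were 1 with DESeq2 size factors, 1 with at least 10 counts in 7 libraries, 4 with the libraries of mouse 1 summed and 1 to 3 with 1 library left out. Without start-point libraries 1, 4, 6 and 7, miR-682 was at -3.02, miR-138-2-3p at 1.69, partner-arm calls were 1 and neuron-associated calls 1. With only those at the start-point, miR-682 was at -4.42, partner-arm calls were 1, calls over all smRNAs 238 and miR-138-2-3p was at -2.61. The partner-arm calls of these fits rest on a split made after seeing the data and carry no test. The interaction of miR-682 was 0.084 without libraries under 75000 counts. With TMM factors r of miR-138-5p with miR-682 was 0.31, and that between time points over 6 mice 0.46. The correlation of miR-138-5p with miR-672-3p was 0.057 with TMM factors and 0.76 without the 2 farthest libraries. That of miR-672-3p with library total was 0.013 with TMM factors and 0.075 without libraries 1, 4, 6 and 7, and that of miR-682 with library total -0.055 without the 2 farthest. The block changed no call of the partner arms. The causes were not tested. Depth limits miR-682 most, since 2 end-point libraries held 0 counts and 4 more at most 3.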
